A study of Mus musculus with 8 samples.

Results

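Gr-1+ cells from the skin wounds of diabetic mice were compared with Gr-1+ cells from the bone marrow of diabetic mice, 2 libraries against 2. Members were chosen by annotation and estimate quality and not by level: loci with a gene name, a length of at least 200 bp and a status of OK in all 4 diabetic libraries. This rule kept 27113 loci of 39330 in the table, of which 28408 had a name. Where a gene name had several loci, the locus with the highest mean level stood for it, which gave 14882 gene names, and 310 names were left out for status. Of these, 13242 reached 1 FPKM (fragments per kilobase of transcript, scaled to the mapped fragments of the library) in at least 2 of the 8 libraries of the series and were tested.

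The diabetic mice were homozygous for a disrupted leptin receptor (Lepr -/-), in a C57BL/6 background, were 8 to 16 weeks old and included both sexes, matched between groups. The same loss of the receptor is therefore shared by the wound and marrow libraries compared here. Each of 10 diabetic mice received 2 excisional wounds 8 mm wide on the back. The wounds were collected on day 3 with a 2 mm border of surrounding skin, dissociated with enzymes, and Gr-1+ cells were taken with magnetic beads. Cells of 5 mice were pooled for each library, so the 2 diabetic wound libraries and the 2 diabetic marrow libraries describe pools and not single mice. The marrow came from wounded mice too, so no library shows marrow of an unwounded animal, and the labels do not say whether wound pool 1 and marrow pool 1 are of the same 5 mice. Heterozygous mice (Lepr +/-), which were nondiabetic, gave 2 wound and 2 marrow libraries in the same way. They are used here to ask whether a difference between wound and marrow depends on genotype. The nondiabetic libraries also count in the level filter, in the choice of locus for a gene name and in the spread estimated by the fit.

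Gr-1 is the name of an antibody target shared by Ly6G, which is carried mostly by neutrophils, and Ly6C, which is carried by inflammatory monocytes and some other cells. Neutrophils load their granules with antimicrobial proteins while they mature in the marrow, and largely stop transcribing those genes before they leave it. In a wound, arriving neutrophils and monocytes sense microbial products and damage, release cytokines and chemokines, and are followed by macrophages that clear debris and support repair. Diabetic mice without a working leptin receptor are widely used as a model of slow wound healing.

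Libraries of 1 group lay close together. Across genes, the Spearman correlation was 0.984 between the diabetic wound pools and 0.988 between the diabetic marrow pools, and 0.633 to 0.641 between a wound and a marrow pool. The ratio of SD to mean over the pools was taken for genes with a mean of at least 10 FPKM in the group. Its median was 1.97% in diabetic wound and 2.75% in diabetic marrow. Only FPKM were available, so the sequencing depth of each library is unknown. The summed FPKM of loci with status OK was 1632463 and 1563929 in the diabetic wound pools, and 2173055 and 2167827 in the diabetic marrow pools. Differences are given as wound minus marrow on the log2(FPKM + 1) scale, with the standard error (SE) of the fit. A gene was called when its Benjamini-Hochberg adjusted p from limma, fitted over all 8 libraries, was under 0.05. By limma, 11340 genes (85.6%) were called: 4975 higher in diabetic wound (37.6%) and 6365 lower (48.1%). Counts within lists, given below, are to be read beside these shares of all genes. The pools of the tissues did not overlap in 5440 genes with wound above marrow (41.1%) and in 6901 genes with wound below it (52.1%). Of the called genes, 2775 were higher by at least 1 (21% of all genes tested) and 3437 lower by at least 1 (26% of all genes tested). The median difference of all genes was -0.19, and was 0.06 with median-ratio scaling and -0.05 with quantile scaling. These p-values measure spread between pools, and fewer cells of a type cannot be told apart from less RNA per cell in any result that follows.

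The genes of the sorted antigens were lower in the wound libraries. Ly6g had 12.2 and 12.9 FPKM in the diabetic wound pools, against 566 and 569 FPKM in the diabetic marrow pools. The pools of the tissues did not overlap, and Ly6g fell by 5.39 (SE 0.0709, adjusted p = 1.73e-08 by limma). The joint locus of Ly6a, Ly6c1 and Ly6c2 fell by 3.43, with 158 and 158 FPKM in wound and 1732 and 1696 FPKM in marrow. S100a8 and S100a9, whose products form the neutrophil protein calprotectin, were measured in the wound only, at 774 and 762 FPKM for S100a8 and 4956 and 4970 FPKM for S100a9. In both diabetic marrow pools they were listed at 0 with a status for too many reads to estimate, so no difference was computed. Lepr was low in both tissues, with 1.37 and 1.22 FPKM in wound and 0.0390 and 0.186 FPKM in marrow, and rose by 1.05 (SE 0.0988, adjusted p = 8.41e-05). In nondiabetic mice it had 4.95 and 4.66 FPKM in wound and 0.477 and 0.689 FPKM in marrow, above the diabetic pools in each tissue. The table has 1 value per locus and the labels do not say where the gene is disrupted, so isoforms of the receptor could not be separated.

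Spp1, Mt2 and Arg1 had the largest increases. Spp1, which encodes osteopontin, a secreted adhesive phosphoprotein (chromosome 5, 104864137 to 104870069, mm9), had 2344 and 2361 FPKM in the diabetic wound pools and 4.64 and 2.70 FPKM in the diabetic marrow pools. It rose by 9.01 (SE 0.187, adjusted p = 8.07e-08 by limma), and the pools of the tissues did not overlap, as the rule for the largest differences required. The metallothionein gene Mt2, whose product binds zinc and copper (chromosome 8, 96696518 to 96697467, mm9), had 997 and 972 FPKM in wound against 1.24 and 0.752 FPKM in marrow, a rise of 8.96 (SE 0.110, adjusted p = 1.46e-08). Arg1, arginase, which breaks down arginine and is made by repair macrophages, had 404 and 399.9 FPKM in wound against 0.293 and 0.0919 FPKM in marrow, a rise of 8.41 (SE 0.103). In all 3 genes the wound pools lay close together and both marrow pools were under 5 FPKM.

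Other genes among the 15 largest increases encode chemokines, proteases and surface proteins, of which Pf4 and Ppbp are described with the chemokines. Ccl7 and Ccl2, which attract monocytes, rose by 8.02 and 7.31, and Ccl2 had 899 and 886 FPKM in wound against 5.16 and 4.18 FPKM in marrow. Saa3, an acute-phase protein, rose by 7.99, with 448 and 428 FPKM in wound and 0.764 and 0.681 FPKM in marrow. Mcpt2, a mast cell protease, had 317 and 334 FPKM in wound and 1.11 FPKM in marrow pool 1, and was listed at 0 in marrow pool 2. Thbs1 encodes thrombospondin 1, a matrix glycoprotein also stored in platelets. It had 1139 and 1141 FPKM in wound against 7.27 and 5.49 FPKM in marrow and rose by 7.28. Cd83, a protein of activated antigen-presenting cells, rose by 7.16, and Cd14, the co-receptor for lipopolysaccharide, by 6.82. Gem, a small GTPase, and Fam71f2 rose by 6.85 and 7.07.

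Camp had the largest decrease, and Mpo and Cd177 were also among the 15 largest. Camp, the antimicrobial peptide cathelicidin (chromosome 9, 109749889 to 109751970, mm9), had 4.82 and 6.19 FPKM in the diabetic wound pools against 10164 and 9783 FPKM in the diabetic marrow pools, and fell by 10.59 (SE 0.126, adjusted p = 1.34e-08). Mpo, the granule enzyme myeloperoxidase, had 0.185 and 0.167 FPKM in wound against 159.6 and 159 FPKM in marrow, and fell by 7.09. Cd177, a neutrophil surface protein, had 9.15 and 9.29 FPKM in wound against 1213 and 1283 FPKM in marrow, and fell by 6.93. All 3 were abundant in both marrow pools and low in both wound pools. Also among the 15 were Mmp8, neutrophil collagenase (-5.77), the ficolin gene Fcnb (-5.77), Itgb2l, an integrin beta chain (-6.60), Ceacam10 (-6.17), Rab27a, a GTPase of granule release (-5.63), and Fam101b, an actin regulator (-5.75). The remaining decreases were of eosinophil, basophil and red cell genes, given below with their lists.

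**Figure D1:**
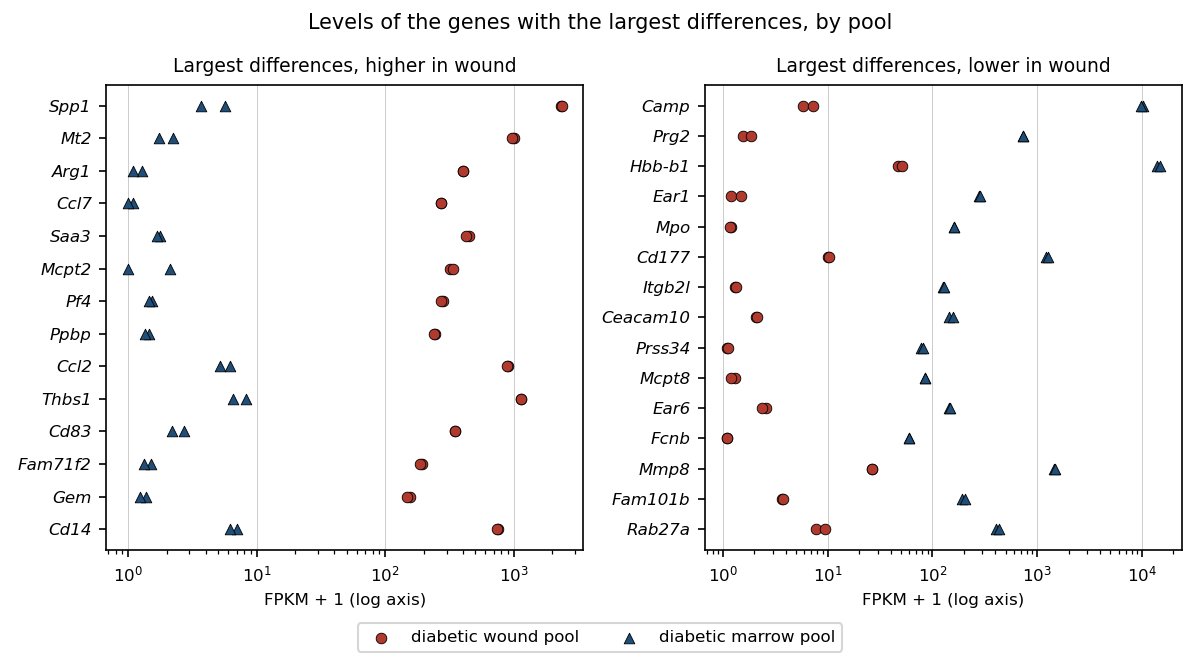
Level of 14 of the 15 genes with the largest increase (left) and the 15 with the largest decrease (right), as FPKM + 1 on a log axis, with a point for each diabetic wound pool (circles) and each diabetic marrow pool (triangles). The genes were chosen to have no overlap between tissues, so their separation in every gene drawn follows from the choice. The pools of a tissue lie together, from Spp1 at 2344 and 2361 FPKM in wound to Camp at 10164 and 9783 FPKM in marrow.

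The metallothionein genes Mt1 and Mt2 rose together, so the sequence before their starts is shown. Mt1, the neighbour of Mt2 on chromosome 8, had 759 and 738 FPKM in the diabetic wound pools and 5.93 and 5.36 FPKM in the diabetic marrow pools, a rise of 6.82 (SE 0.0665, adjusted p = 8.30e-09). Metallothionein genes of mice are known to be switched on by the zinc-sensing factor MTF-1 through short metal response elements, and by glucocorticoids. The 250 bases before each start are printed from RefSeq (GRCm38.p6, plus strand, chr8:94172368-94172617 for Mt2 and chr8:94178839-94179088 for Mt1), with matches to the element TGCACNC or TGCGCNC on either strand in capitals.
Mt2: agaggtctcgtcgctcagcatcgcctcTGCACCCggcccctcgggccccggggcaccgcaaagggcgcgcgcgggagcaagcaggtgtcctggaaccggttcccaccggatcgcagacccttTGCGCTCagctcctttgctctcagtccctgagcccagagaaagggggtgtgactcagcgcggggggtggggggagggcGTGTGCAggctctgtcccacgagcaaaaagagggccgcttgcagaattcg
Mt1: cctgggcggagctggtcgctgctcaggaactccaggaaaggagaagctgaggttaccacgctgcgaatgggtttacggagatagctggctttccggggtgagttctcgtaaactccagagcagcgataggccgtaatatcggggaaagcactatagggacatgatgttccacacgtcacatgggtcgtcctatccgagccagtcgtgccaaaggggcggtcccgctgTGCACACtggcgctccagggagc
The Mt2 window held 3 matches, 223, 128 and 50 bases before the start, counted to the upstream end of each match, and the Mt1 window held 1 match, 23 bases before it. At least 1 match was present in 33.9% of the 8379 tested genes with a promoter in the table, and 3 or more in 2.57%. Of the 15 genes with the largest increases, 6 had a promoter in the table, and Mt2 was the 1 gene of these with a match. Motifs of NF-kB, AP-1 and C/EBP were also searched, with matches in 0, 2 and 4 of these 6 genes. They matched in 1, 0 and 3 of 12 genes with the largest decreases, and in 10.7%, 6.07% and 9.29% of tested genes. The windows of Mt1, Tnf and Il1b held no match to these other motifs. A match is a run of letters and does not show binding. Sequence past the RefSeq start was not searched, and where a gene's main start lies further downstream, as it may for Mt1, nearer elements are outside the window and the count is too low.

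Of the lists, secondary and tertiary granule genes had the lowest median. All 16 tested fell, against 48.1% of all genes tested, with a median of -4.85. Beside Camp, Cd177 and Mmp8, the list held Olfm4, olfactomedin 4 (fell by 3.91), Mmp25, a membrane-bound protease (-4.80), and the joint locus of the chitinase-like genes Chi3l3 and Chi3l7 (-4.13). The smallest decrease was in the locus shared by the metalloprotease gene Adam8 and 6430531B16Rik (-0.25), which was 0.06 with median-ratio scaling. Ltf, lactoferrin, and Ngp, neutrophilic granule protein, lacked an estimate in diabetic marrow pool 2. In the other pools Ltf had 2.22 and 3.08 FPKM in wound against 2453 FPKM in marrow, and Ngp 5.46 and 7.65 FPKM in wound against 6119 FPKM in marrow.

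Primary granule genes, which are transcribed earlier in maturation, mostly fell. Of 10 tested, 7 fell and 1 rose, with a median of -2.81. Mpo fell most, and Serpinb1a, an inhibitor of granule proteases, Ctsg, cathepsin G, and Mgst1, a membrane glutathione transferase, fell by 4.83, 4.02 and 3.26. Ctsc, cathepsin C, the protease that activates granule enzymes, rose by 1.91, with 255 and 251 FPKM in wound against 64.9 and 68.1 FPKM in marrow. Ctsc is also made by macrophages and other cells. The elastase gene Elane, named after its values were seen, lies on a locus of unknown strand and was not called (adjusted p = 0.109).

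Genes of mature neutrophils moved in both directions, with 5 of 21 called higher and 15 lower (median -1.32). The sensors Clec4e and Clec4d, C-type lectins that bind microbial glycolipids, rose, and Clec4e had 468 and 469 FPKM in the diabetic wound pools against 32.2 and 32.6 FPKM in the diabetic marrow pools (3.81). Selplg, the selectin ligand PSGL-1, fell by 2.60, and Itgb2, the beta 2 integrin chain, by 2.63. The joint locus of the deiminase genes Padi3 and Padi4 fell most, by 6.54. Padi4 modifies histones in neutrophil traps. Cxcr2, the receptor for neutrophil-attracting chemokines, had 19.5 and 23.2 FPKM in wound against 202 and 209 FPKM in marrow and fell by 3.21, on a locus of the opposite strand. The cystatin-like gene Stfa2 was uneven between the wound pools, at 3260 and 8967 FPKM, against 4098 and 3822 FPKM in marrow, and was not called (adjusted p = 0.359). It was named after its values were seen.

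The oxidase that makes superoxide in phagocytes was lower in all its measured parts. Of 6 subunit and regulator genes tested, 6 fell (median -2.30). Rac2, its GTPase, had 42.2 and 40.2 FPKM in wound against 550.1 and 563 FPKM in marrow and fell by 3.72. The cytosolic subunit Ncf1 fell by 2.79, and the catalytic membrane subunit Cybb by 2.27. Rac1, a GTPase of most cell types, fell least (-0.60).

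Enzymes of lipid mediators were split, with 8 of 16 higher and 8 lower, against 37.6% and 48.1% of all genes tested. Their median was -0.29, and was 0.01 with median-ratio and 0.02 with quantile scaling. The leukotriene enzymes Alox5 (-4.04) and Lta4h (-4.14) and the lipoxygenase Alox15 (-4.52) fell. Ptgs2, the inducible prostaglandin synthase COX-2, had 367 and 368 FPKM in the diabetic wound pools against 6.44 and 5.64 FPKM in the diabetic marrow pools and rose by 5.71. Ptges, which makes prostaglandin E2 from its product, rose by 3.25.

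Chemokine genes rose almost without exception. Of 8 CXC chemokines tested, 8 rose (median 4.87), against 37.6% of all genes tested, and of 15 CC chemokines 14 rose and none fell (median 2.84). Pf4, a chemokine best known from platelets, had 280.4 and 272 FPKM in the diabetic wound pools against 0.532 and 0.454 FPKM in the diabetic marrow pools. Ppbp, another platelet chemokine, had 244 and 237 FPKM in wound against 0.453 and 0.345 FPKM in marrow. They rose by 7.54 and 7.43, while the other 16 tested members of the erythroid and megakaryocyte list fell. Cxcl5, which attracts neutrophils, rose by 5.96, Cxcl10, which attracts T cells, by 6.39, and Cxcl11 by 1.18. Ccl8, Ccl9 and Ccl22, which attract monocytes, myeloid cells and T cells, rose by 5.01, 3.98 and 3.48.

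Several of the strongest neutrophil-attracting genes had no estimate in 1 or more pools and were not tested. Cxcl1 was at 2873 FPKM in diabetic wound pool 2, against 2.44 and 0.0439 FPKM in the diabetic marrow pools, and the joint locus of Cxcl2 and Cxcl3 was at 5323 FPKM in that wound pool, against 60.7 and 56.1 FPKM. In diabetic wound pool 1 both loci were listed at 0 with a status for too many reads. Ccl3, which attracts monocytes and neutrophils, had a failed estimate in wound pool 2, with 123.5 FPKM in wound pool 1 against 2.77 and 2.73 FPKM in marrow.

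Most cytokine ligand genes rose, and their receptors were mixed. Il1b, interleukin 1 beta, had 1732 and 1703 FPKM in the diabetic wound pools against 114 and 108 FPKM in the diabetic marrow pools and rose by 3.94 (SE 0.0713, adjusted p = 4.71e-08). Tnf, tumour necrosis factor, had 785 and 786 FPKM in wound against 15.1 and 14.8 FPKM in marrow and rose by 5.62 (SE 0.0404, adjusted p = 6.95e-09). Neither gene overlapped between tissues. Of 16 interleukin 1 family and inflammasome genes, 12 rose and 4 fell. Il1rn, the antagonist of the interleukin 1 receptor, rose by 4.63, with 459 and 466 FPKM in wound, and the inflammasome sensor Nlrp3 by 3.61. Gsdmd, whose cleaved product forms membrane pores, fell by 2.27.

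Of 19 other cytokine and colony-stimulating factor genes, 16 rose and 3 fell (median 1.78). Csf3, the granulocyte growth factor G-CSF, had 64.9 and 65.0 FPKM in wound against 0.0442 and 0.0278 FPKM in marrow (5.99), and Il6, a fever and acute-phase cytokine, had 85.0 and 84.2 FPKM against 0.618 and 0.386 FPKM (5.84). Il10, an anti-inflammatory cytokine, had 25.3 and 25.6 FPKM in wound and was listed at 0 in both marrow pools. Csf1, the macrophage growth factor, rose by 4.46. Of 18 cytokine receptor genes, 9 rose and 7 fell (median 0.08), against 37.6% and 48.1% of all genes tested. With median-ratio scaling 13 of these receptor genes rose and 5 fell. They ran from Il6st, the shared receptor chain gp130 (1.88), to Il17ra, the receptor of interleukin 17 (-2.22). Of 15 genes of the tumour necrosis factor family, 9 rose and 4 fell. The receptor Tnfrsf1b rose by 3.27, and Tnfsf13b, the B cell survival factor BAFF, fell by 3.70.

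Chemoattractant receptors were split, with 9 of 19 higher and 10 lower and a median of -0.29, against 0.02 with median-ratio and -0.01 with quantile scaling. The shares over all genes tested were 37.6% higher and 48.1% lower. Ccrl2, a receptor that binds chemerin without signalling, had 209 and 206 FPKM in the diabetic wound pools against 1.19 and 0.825 FPKM in the diabetic marrow pools (6.71). C3ar1, the receptor of the complement fragment C3a, rose by 4.79, and the lymph node homing receptor Ccr7 by 4.24. Ltb4r1, the receptor of the neutrophil attractant leukotriene B4, fell by 3.95. Of 17 adhesion genes, 9 rose and 8 fell. Icam1, the endothelial and leukocyte ligand of beta 2 integrins, rose by 6.49, and Itga5, a fibronectin receptor chain, by 4.04, whereas Itgal, the alpha chain of LFA-1, fell by 3.05.

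Genes downstream of NF-kB, the factor that microbial sensors switch on, were mostly higher. Of 20 subunit, inhibitor and target genes, 18 rose and 2 fell (median 2.42). Tnfaip3, an inhibitor of the pathway, had 613 and 602 FPKM in the diabetic wound pools against 9.91 and 8.68 FPKM in the diabetic marrow pools (5.89). Zc3h12a, an RNase that cuts cytokine messages, rose by 3.75, Tnip3 by 3.92, Tnfaip2 by 3.09, and Sod2, mitochondrial superoxide dismutase, by 3.10. The 2 that fell were not called with either scaling, and include Rela, a subunit of the factor (-0.47), whose locus has no known strand. In the list of toll-like receptors and their partners 12 of 17 rose and 5 fell, with Cd14 and Tlr2 (1.82) among the increases and Irak4, a kinase of the pathway, at -2.14.

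Immediate early genes, which respond within minutes to many stimuli including tissue dissociation, rose in 18 of 23 and fell in 4 (median 2.67). Atf3, a stress-induced transcription factor, had 145 and 142 FPKM in wound against 0.800 and 0.693 FPKM in marrow (6.37). Egr2, another such factor, rose by 5.36, and the phosphatases Dusp4 and Dusp5 by 6.04 and 4.92. Zfp36, whose product destabilises cytokine messages, fell most, by 2.75, with 147 and 151 FPKM in wound against 969 and 1055 FPKM in marrow, on a locus of unknown strand. Fos and Dusp1, named after their values were seen, also fell. Fos had 399 and 393 FPKM in the diabetic wound pools against 612 and 629.8 FPKM in the diabetic marrow pools and fell by 0.65, and Dusp1 had 404 and 392 FPKM against 577 and 569.8 FPKM and fell by 0.52. Both were also lower with either scaling. Per the labels, wounds were dissociated with enzymes. Whether marrow had the same step is not clear from the labels, so handling and tissue cannot be told apart here.

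Chaperone genes were higher in part. Of 13 cytosolic heat shock genes, 11 rose and 1 fell (median 1.24), with Hsph1 at 3.23, the co-chaperone Bag3 at 3.17 and Hsp90aa1 at 1.91. Hspa8, the constitutive HSP70, fell by 0.89, with 114 and 141 FPKM in wound against 226 and 246 FPKM in marrow, and was not called with either scaling. Of 22 endoplasmic reticulum stress genes, 19 rose and 2 fell (median 1.18). Ppp1r15a, a phosphatase subunit that ends the stress response, rose by 4.37, the chaperone Hspa5 by 2.61 with 319.8 and 317 FPKM in wound, and the secreted factor Manf by 1.90. Asns, asparagine synthetase, fell by 1.04.

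**Figure D2:**
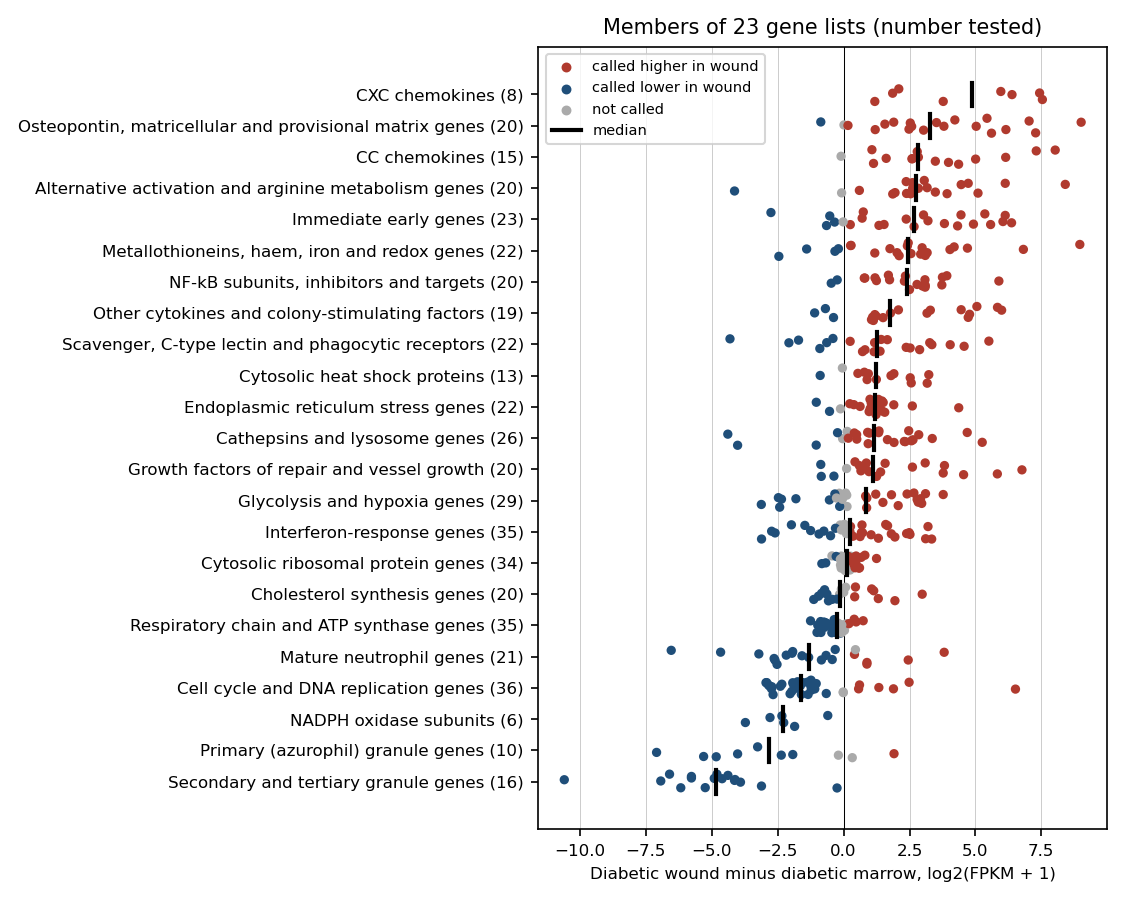
Difference between diabetic wound and diabetic marrow, on the log2(FPKM + 1) scale, for each tested member of 23 gene lists, with the median of each list as a bar and members called higher, called lower and not called in separate colours. Medians run from 4.87 for CXC chemokines to -4.85 for secondary and tertiary granule genes, and most lists hold members on both sides of 0.

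Macrophage genes were higher in the wound libraries. Of 19 tested, 18 rose and none fell (median 2.31). Lgmn, a lysosomal protease, had 246 and 238 FPKM in the diabetic wound pools against 8.35 and 8.53 FPKM in the diabetic marrow pools (4.69). Gpnmb and Trem2, surface proteins of lipid-laden and repair macrophages, rose by 3.93 and 3.55, and the cathepsin Ctsb by 2.85. The summed level of the list was 2151 and 2124 FPKM in wound against 723 and 743 FPKM in marrow. The complement genes C1qa, C1qb and C1qc, defining members named after their values were seen, were not at 0 in marrow. They averaged 116, 66.6 and 58.4 FPKM in wound against 22.5, 8.96 and 11.6 FPKM in marrow. How much of any increase above came from macrophages in the wound sort was not tested.

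Monocyte genes were mixed, with 10 of 18 higher and 7 lower (median 1.33), and their summed level was lower in wound, at 5365 and 5376 FPKM against 9303 and 9212 FPKM in marrow. That sum is weighted to abundant members. It holds the joint locus of the sorted Ly6 antigens (-3.43) and that of Chi3l3 and Chi3l7 (-4.13), and was not computed without them. Dendritic cell genes rose in 14 of 16 and fell in 1 (median 2.30). Cd83 had 348 and 347 FPKM in wound against 1.72 and 1.20 FPKM in marrow. Cd207, the langerin of epidermal Langerhans cells, had 30.9 and 30.1 FPKM against 0.0306 and 0 FPKM (4.95), and Cd80, a co-stimulator of T cells, rose by 3.07. Genes of MHC class II, which presents antigen to T cells, rose in 5 of 10 and fell in 4. The shares of all genes tested were 37.6% and 48.1%. H2-Ab1 (2.49), Cd74, the invariant chain (2.02), and H2-Eb1 (2.95) were among the 5, and H2-Ob, which restrains peptide loading, was lowest (-1.36).

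Uptake and digestion genes mostly rose. Of 22 scavenger, lectin and phagocytic receptor genes, 16 rose and 6 fell (median 1.28). Clec4n, the fungal sensor dectin-2, rose by 5.51, the fatty acid and lipoprotein receptor Cd36 by 4.04 with 280.4 and 270.1 FPKM in wound, and the scavenger receptor Msr1 by 3.35. The locus shared by Clec12a and Clec12b, inhibitory lectins, was lower (-0.57) and its strand differs from the annotation. Of 26 cathepsin and lysosome genes, 20 rose and 4 fell (median 1.15). Ctsk, a collagen-degrading cathepsin, had 50.9 and 51.1 FPKM in the diabetic wound pools against 0.405 and 0.317 FPKM in the diabetic marrow pools (5.26), and Ctsl rose by 3.36. Ctse, cathepsin E, fell most, by 4.39.

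Lipid handling genes rose in 12 of 22 and fell in 9, against 37.6% and 48.1% of all genes tested. Abca1, which exports cholesterol, had 133 and 131 FPKM in wound against 2.85 and 2.75 FPKM in marrow (5.13). The lipid droplet coat gene Plin2 rose by 3.40, with 627 and 617 FPKM in wound against 58.1 and 57.5 FPKM in marrow, and the fatty acid binding proteins Fabp4 and Fabp5 by 4.75 and 3.57. Fabp4 is also a fat and vessel gene. Acaca, which commits carbon to fatty acid synthesis, fell by 1.85.

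Most genes of the lists tied to repair rose. Of 20 genes of alternative activation and arginine use, 18 rose and 1 fell (median 2.73). Beside Arg1, Cd274, the T cell inhibitor PD-L1, had 200 and 201 FPKM in the diabetic wound pools against 4.96 and 4.81 FPKM in the diabetic marrow pools (5.10). The member that fell was the joint locus of Chi3l3 and Chi3l7, which is also an alternative activation marker in mice. Of 20 growth factor genes, 16 rose and 3 fell (median 1.11). The epidermal growth factor family ligands Areg, Ereg and Hbegf rose by 6.76, 5.83 and 4.55, and Areg had 114 and 111 FPKM in wound against 0.0699 and 0.0216 FPKM in marrow. Vegfa, the main vessel growth factor, had 151 and 151 FPKM against 9.88 and 10.3 FPKM (3.78), its relative Pgf rose by 3.83, and Angpt1, a vessel-stabilising factor, fell by 0.86.

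Most matrix and matrix-cutting genes rose as well. Of 20 osteopontin, matricellular and provisional matrix genes, 18 rose and 1 fell (median 3.28). Tgm2, which cross-links proteins, rose by 5.61, with 178 and 174 FPKM in wound. Cyr61 and Tnc, tenascin C, rose by 5.44 and 5.03, and Serpine2 fell by 0.86. Of 18 matrix metalloprotease, related protease and inhibitor genes, 12 rose and 5 fell. Mmp12, macrophage elastase, had 77.7 and 78.2 FPKM in wound against 0.162 and 0.00948 FPKM in marrow (6.19), whereas the neutrophil proteases Mmp9 (-4.61), Mmp8 and Mmp25 fell. The summed level of that list was lower in wound, at 664 and 656 FPKM against 3286 and 3400 FPKM in marrow, although most of its members rose.

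Metal, haem and redox genes rose in 18 of 22 and fell in 4 (median 2.44). Hmox1, haem oxygenase 1, had 624 and 617 FPKM in the diabetic wound pools against 32.7 and 33.3 FPKM in the diabetic marrow pools (4.19), and Srxn1, sulfiredoxin, rose by 4.70. Slc40a1, ferroportin, which exports iron, fell by 2.45, with 23.5 and 23.4 FPKM in wound against 130.4 and 136 FPKM in marrow.

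Markers of resident skin cells were present in the wound libraries, beside the increases given above. Of 19 keratinocyte genes, 18 rose and 1 fell (median 2.42), and the list summed to 818 and 794 FPKM in the diabetic wound pools against 57.4 and 55.5 FPKM in the diabetic marrow pools. The locus shared by Krt14 and Krt16 rose by 7.61, that of Krt5, Krt6a and Krt79 by 7.60, and Lgals7, an epithelial galectin, by 5.81. The 1 member that fell, the plakophilin gene Pkp1, has a locus of unknown strand, and at its locus with the annotated strand the difference was 2.39. Of 25 fibroblast and matrix genes, 24 rose and none fell (median 2.47), with sums of 562 and 541 FPKM in wound against 51.4 and 51.2 FPKM in marrow. The collagen genes Col1a2 and Col3a1 rose by 6.33 and 5.82, and Dcn, decorin, by 5.99. Of 21 endothelial genes, 19 rose and 1 fell (median 2.28), with sums of 262 and 258 FPKM against 74.9 and 78.7 FPKM. Plvap, of fenestrated vessels, rose by 4.31, the vascular cadherin Cdh5 by 3.98 and the tight junction gene Cldn5 by 4.23, while Erg, a factor shared with blood progenitors, fell by 2.35.

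The part that these cells had in increases of other lists, such as growth factors and matrix genes, was not tested. In both diabetic marrow pools, 2 of 19 keratinocyte and 2 of 25 fibroblast genes were at 0, and 0 of 21 endothelial genes. Of 8 muscle, fat, melanocyte and nerve genes tested, 7 rose and 1 fell, and their sums were 264 and 253 FPKM in wound against 9.82 and 11.3 FPKM in marrow.

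**Figure D3:**
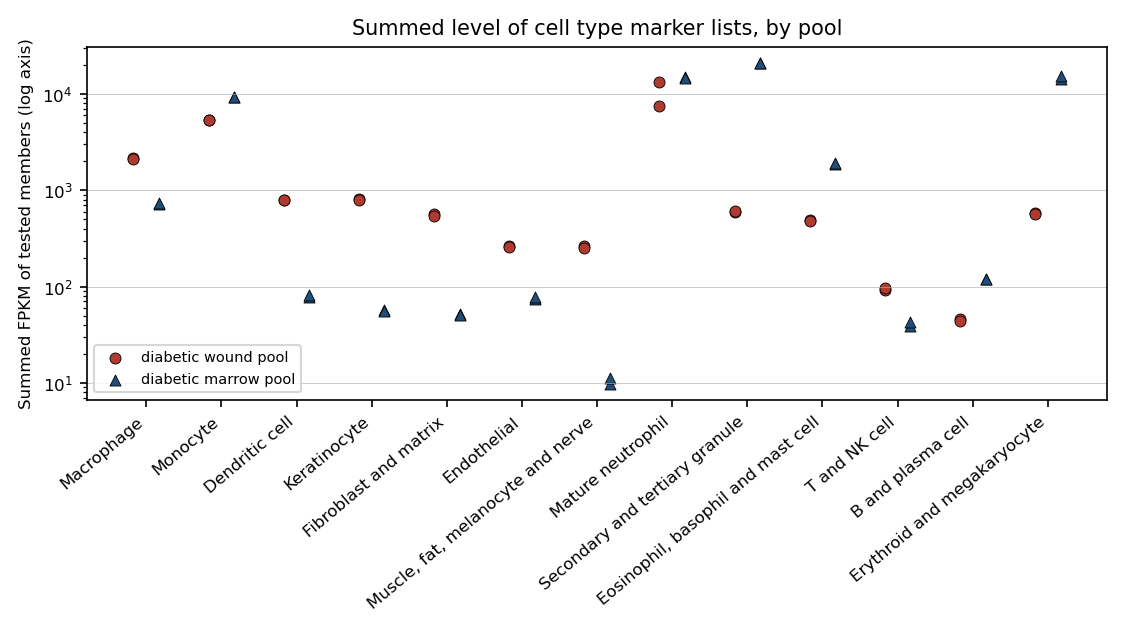
Summed FPKM of the tested members of 13 marker lists, on a log axis, in each diabetic wound pool (circles) and each diabetic marrow pool (triangles). Macrophage, dendritic cell and skin cell lists were higher in wound, with keratinocyte genes at 818 and 794 FPKM against 57.4 and 55.5 FPKM in marrow, and granule and erythroid lists were higher in marrow.

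Other granulocytes and their relatives changed by lineage. Of 20 eosinophil, basophil and mast cell genes, 6 rose and 14 fell (median -2.33). Prg2, the major basic protein of eosinophils, had 0.550 and 0.857 FPKM in the diabetic wound pools against 726 and 734 FPKM in the diabetic marrow pools and fell by 8.75. The eosinophil ribonucleases Ear1 and Ear6 fell by 7.72 and 5.87, and eosinophil peroxidase, Epx, by 4.77. The basophil proteases Prss34 and Mcpt8 fell by 6.16 and 6.08. The mast cell chymase Cma1 had 81.1 and 77.4 FPKM in wound against 0.188 and 0.0705 FPKM in marrow and rose by 6.15, as did the locus shared by Mcpt4 and Mcpt9 (6.12). The eosinophil genes of the list fell, whereas the mast cell tryptase Tpsb2, like Cma1, rose (5.24). Tpsb2 was named after its values were seen.

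Most red cell and B cell genes were lower, and T and NK cell genes were mixed. Hbb-b1, adult beta globin, had 46.5 and 49.9 FPKM in wound against 13958 and 14992 FPKM in marrow and fell by 8.20, and Slc4a1, the red cell anion exchanger, fell by 5.27. The list of erythroid and megakaryocyte genes had 16 of 18 lower (median -2.47). Of 16 B and plasma cell genes, 13 fell and 2 rose (median -1.95). Ms4a1 and Pax5, of B cells, fell by 3.21 and 2.59, and Sdc1, syndecan 1, which plasma cells and epithelia share, rose by 4.49. Of 16 T and NK cell genes, 8 fell and 4 rose (median -0.49), near the 48.1% of all genes that fell. Their summed level was 92.1 and 97.4 FPKM in wound against 39.3 and 42.8 FPKM in marrow, and without Il7r it was lower in wound, at 22.9 and 27.4 FPKM against 38.3 and 41.9 FPKM. Nkg7, a cytotoxic granule protein, fell by 3.24, while Il7r, the receptor of interleukin 7, had 69.2 and 70.1 FPKM in wound against 0.998 and 0.910 FPKM in marrow (5.18). Of 13 stem and progenitor cell genes, 4 rose and 7 fell (median -0.62), near the 37.6% and 48.1% of all genes tested.

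Cell cycle genes were mostly lower in wound cells, with 28 of 36 lower and 6 higher (median -1.62). Ccna2, cyclin A2, fell by 2.92, with 2.01 and 1.86 FPKM in the diabetic wound pools against 21.4 and 20.9 FPKM in the diabetic marrow pools. Rrm2, of DNA precursor synthesis, fell by 2.73 and Cdk2 by 2.80. Cdkn1a, the cell cycle inhibitor p21, had 288 and 287 FPKM in wound against 2.20 and 2.11 FPKM in marrow (6.52), on a locus of the opposite strand. Mki67, the proliferation antigen Ki-67, named after its values were seen, had 31.9 and 32.0 FPKM in wound against 32.0 and 32.5 FPKM in marrow and was not called (adjusted p = 0.798), but was higher with median-ratio (0.29) and quantile (0.40) scaling.

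Mitochondrial and cholesterol genes differed little on balance in diabetic mice. Of 35 respiratory chain and ATP synthase genes, 22 fell and 4 rose, with a median of -0.26, but 13 fell and 13 rose with median-ratio scaling, where the median was 0.01, and it was 0.03 with quantile scaling. Atp5f1, of the ATP synthase, fell by 1.25 and Ndufa5, of complex I, rose by 0.74. Of 20 cholesterol synthesis genes, 9 fell and 7 rose (median -0.12, and 0.13 with median-ratio scaling). Without scaling, 62.9% of the respiratory chain genes were lower and 11.4% higher. The cholesterol counts are near the shares of all genes tested, 48.1% lower and 37.6% higher. Insig1, which restrains the pathway, rose by 2.98, with a mean of 40.6 ± 0.645 FPKM in wound and 4.28 ± 0.403 FPKM in marrow (SD, n = 2 each), and Mvd, of the mevalonate steps, fell by 1.13. Of 34 ribosomal protein genes, 14 rose and 3 fell, and with median-ratio scaling 26 rose and 1 fell.

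Glycolysis and hypoxia genes rose in 15 of 29 and fell in 8. Bnip3, a hypoxia-induced mitochondrial protein, rose by 2.96. Slc2a3, the glucose transporter GLUT3, had 72.4 and 72.8 FPKM in the diabetic wound pools against 390.1 and 398 FPKM in the diabetic marrow pools and fell by 2.42. The hexokinase of myeloid cells, Hk3, fell by 2.47, and Pfkfb4, a regulator of glycolysis, by 3.12. Of 20 genes of leptin and insulin signalling, 9 rose and 9 fell, with a median of -0.01, against 0.27 with median-ratio and 0.31 with quantile scaling. Over all genes tested, 37.6% rose and 48.1% fell. The feedback inhibitors Socs3 and Cish rose by 3.06 and 2.37, and the transcription factor Stat5b fell by 2.57.

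Cell death, interferon and lineage factor genes were mixed. Of 21 genes of the BCL2 family, caspases and inhibitors of apoptosis, 10 rose and 10 fell, against 37.6% and 48.1% of all genes tested. The locus shared by Bcl2l11, which encodes the death-promoting BIM, and Acoxl rose by 5.08. Of 35 interferon-response genes, 20 rose and 10 fell, from Oasl1 (3.34), Isg15 (3.20) and the factor Irf1 (3.11) to Ifitm3, an antiviral membrane protein (-3.11). Ifitm3 had 205 and 205 FPKM in wound against 1737 and 1818 FPKM in marrow. Of 26 myeloid transcription factor genes, 17 rose and 9 fell. Bhlhe40, a circadian and immune factor, rose by 3.75, while Cebpe, which drives granule genes, had 1.86 and 1.17 FPKM in wound against 47.4 and 53.1 FPKM in marrow (-4.36). Gfi1, of granulocyte development, fell by 2.89, and Myb, of progenitors, by 4.11. Hoxa3, a homeobox gene, had 0.415 and 0.666 FPKM in wound against 0.229 and 0.556 FPKM in marrow, with overlapping pools, and was not called (adjusted p = 0.712).

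The signed difference between wound and marrow was then compared between genotypes, as diabetic minus nondiabetic, by the interaction term of the same fit. Of 13220 genes tested, 7753 (58.6%) differed: 5148 (38.9%) had the higher difference in diabetic mice and 2605 (19.7%) the lower. This split rests on scaling, since the median of all genes was 0.18, with 3351 higher and 3910 lower after median-ratio scaling, and 4026 higher and 3401 lower after quantile scaling. A difference of at least 1 was reached by 649 genes (4.91%) in the higher direction and 608 (4.6%) in the lower. A total of 633 genes (4.79%) were called in opposite directions in the genotypes with the interaction past the threshold.

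Platelet chemokine and metallothionein genes were among the 8 most positive interactions. Ppbp rose by 7.43 in diabetic mice and by 2.31 in nondiabetic mice, an interaction of 5.12 (adjusted p = 1.50e-05). Its level was 244 and 237 FPKM in diabetic wound and 0.453 and 0.345 FPKM in diabetic marrow, against 29.1 and 28.4 FPKM in nondiabetic wound and 5.36 and 4.65 FPKM in nondiabetic marrow, so diabetic pools were higher in wound and lower in marrow. Pf4 had an interaction of 3.89, with 280.4 and 272 FPKM in diabetic wound against 65.4 and 73.9 FPKM in nondiabetic wound, and Mcpt2 one of 3.94. Mt1 and Mt2 had interactions of 2.79 and 2.49, and Mt2 had 997 and 972 FPKM in diabetic wound against 199 and 188 FPKM in nondiabetic wound. In marrow Mt2 had 1.24 and 0.752 FPKM in diabetic pools against 1.21 and 1.18 FPKM in nondiabetic pools. Ldhb (4.27), Zfp825 (2.52) and Gtpbp10 (2.48) were called with pools that were uneven within groups. Arg1 (1.74, adjusted p = 0.000301) and Spp1 (1.59, adjusted p = 0.00331) were also positive, and for Tnf (-1.33) and Il1b (-0.86) the interaction was negative.

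Genes of early response and stress were among the 8 most negative interactions. Fosb rose by 0.70 in diabetic mice and by 3.74 in nondiabetic mice, an interaction of -3.04 (adjusted p = 1.50e-05). Its level was 86.7 and 85.7 FPKM in diabetic wound and 52.0 and 53.1 FPKM in diabetic marrow, against 64.8 and 64.9 FPKM in nondiabetic wound and 4.12 and 3.73 FPKM in nondiabetic marrow. The gap lay in marrow, where diabetic pools were higher. Klf2, a factor of quiescent leukocytes, fell by 0.85 in diabetic mice and rose by 1.93 in nondiabetic mice (-2.78), again with 292 and 302 FPKM in diabetic marrow against 53.1 and 46.5 FPKM in nondiabetic marrow. Hspa8 (-3.34), the inducible HSP70 gene Hspa1b (-3.02) and Lpl, lipoprotein lipase (-2.95), had interactions of the same sign. Nsun4 (-4.05) and Cacna1i (-2.79) stood apart, since they were under 1 FPKM in wound of either genotype and above 10 FPKM in diabetic marrow.

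**Figure D4:**
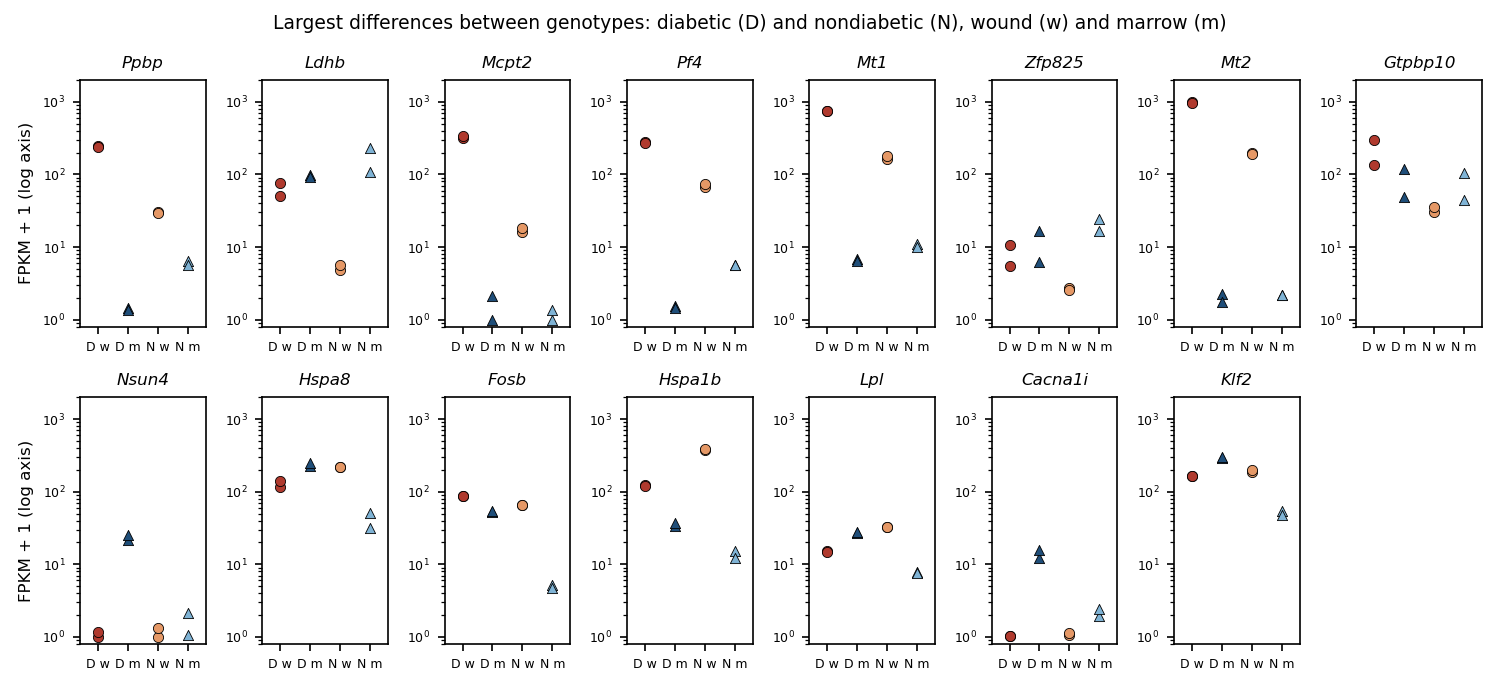
FPKM + 1, on a log axis, of the 8 genes with the most positive (top) and 7 of the 8 with the most negative (bottom) interaction, with a point for each pool of diabetic wound (D w), diabetic marrow (D m), nondiabetic wound (N w) and nondiabetic marrow (N m). Ppbp and Mt2 are highest in diabetic wound, at 244 and 237 and at 997 and 972 FPKM, while Fosb and Klf2 are lowest in nondiabetic marrow. Pools of Ldhb, Zfp825 and Gtpbp10 are spread within groups.

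At the level of lists, 16 of 23 immediate early genes had the lower difference in diabetic mice and 3 the higher, and 17 and 16 were lower with median-ratio and quantile scaling. Of 10 MHC class II genes, 9 were lower and none higher without and with either scaling. Their median difference between wound and marrow was 0.41 in diabetic mice and 1.27 in nondiabetic mice. Ciita, the regulator of these genes, named after its values were seen, fell by 1.04 in diabetic mice and rose by 1.07 in nondiabetic mice. Mature neutrophil genes were lower in 14 of 21 and higher in 4, and cytokine receptor genes were lower in 13 of 18 and higher in 1. Among all genes tested, 19.7% were lower and 38.9% higher.

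In the other direction stood lists of growth and metabolism. Of 36 cell cycle genes, 32 had the higher difference in diabetic mice and 2 the lower, and 27 and 28 were higher with median-ratio and quantile scaling. The median was -1.62 in diabetic mice and -2.34 in nondiabetic mice. Of 35 respiratory chain genes 32 were higher and none lower, and 26 and 29 were higher with the scalings, with medians of -0.26 in diabetic mice and -0.93 in nondiabetic mice. Of 20 cholesterol synthesis genes 19 were higher and none lower, and 17 and 18 with the scalings. Cyp51, a sterol demethylase, rose by 1.14 in diabetic mice and was at -0.94 in nondiabetic mice. Endothelial genes were higher in 16 of 21 and lower in none. Secondary granule, macrophage, growth factor and fibroblast lists had members in both directions. Higher were 4 of 16, 6 of 19, 7 of 20 and 6 of 25, and lower were 5, 8, 6 and 9. For all lists of this paragraph, the shares over all genes tested were 38.9% higher and 19.7% lower.

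**Figure D5:**
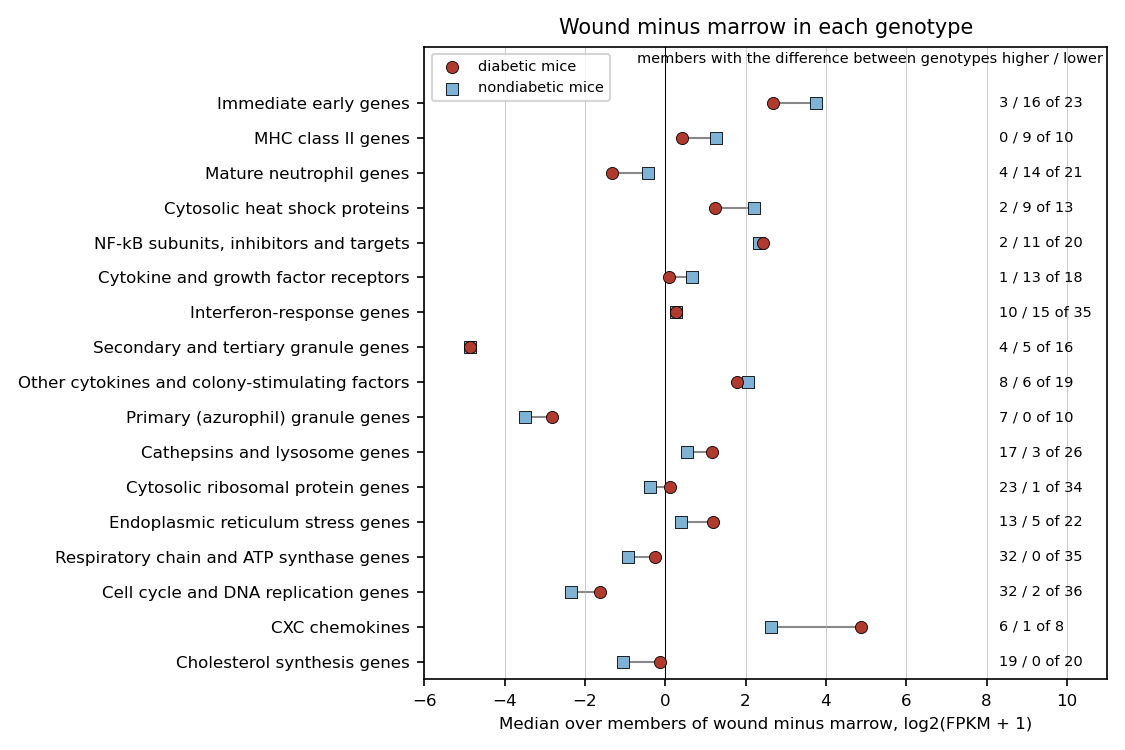
Median over list members of the difference between wound and marrow, on the log2(FPKM + 1) scale, in diabetic mice (circles) and nondiabetic mice (squares) for 17 lists, ordered by the median interaction, with the number of members whose interaction was called higher and lower at the right. Cholesterol synthesis genes have 19 of 20 members higher in diabetic mice, immediate early genes 16 of 23 lower, and the medians of secondary and tertiary granule genes nearly coincide.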

How the data were processed

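RNA of Gr-1+ cells was sequenced in 8 pooled libraries (2 pools per tissue and genotype). Per the submitters' processing notes, TopHat and Cufflinks were used with mm9, and versions are not given in the sources used here. The deposited table holds FPKM and a status per locus, per the file headers, so depth is unknown and no count test was possible.

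Loci were kept by name, length (200 bp or more) and status OK. Names joining several genes were kept as 1 locus (557 names). Genes reaching 1 FPKM in at least 2 of 8 libraries were fitted with limma 3.58.1 (R 4.3.3) on log2(FPKM + 1), with 4 group means and a mean-variance trend. Fold changes on this scale understate changes of low genes. P-values were adjusted by Benjamini and Hochberg over all genes tested. Failed nondiabetic estimates were left out of a gene's fit. Locus strand was inferred from the order of the table. It matched the annotation for 95.1% of loci that had an inferred strand and a single gene name. Of 14882 usable names, 13631 were on the annotated strand and 975 on loci of unknown strand. Calls on loci of another or unknown strand are uncertain. Gene coordinates are from GENCODE vM1 (mm9). Pool number was not a term of the main fit and was fitted as an alternative. Pools that share a number did not deviate together, which with 2 pools per group does not show whether they share mice.

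The method was tested on simulated data for diabetic wound against diabetic marrow (13040 genes): 89 of 100 genes changed by 2-fold and 95 of 100 by 4-fold were recovered, and 9 of 12840 unchanged genes were called. Only 200 genes of higher mean level were changed, with independent normal noise and no scaling difference between libraries. In the data 85.6% of genes were called, so these counts are not error rates of the calls given here. Genes are named by rule: the 15 largest differences in each direction with at least 10 FPKM and no overlap, for each list its extremes and at most 4 called members by p, and the 8 largest interactions in each direction. Some genes that the rule names are not reported here. Members, lists and rules were chosen with earlier results of these data known. Alternatives covered pseudocount, filter, scaling, moderation, loci, status and leaving out each pool.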

Additional observations from a re-analysis of the deposited data

Results flagged for a closer look

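A total of 7753 genes had a difference between wound and marrow that itself differed between diabetic and nondiabetic mice by limma's interaction term (adjusted p under 0.05). A positive interaction means a higher value of wound minus marrow in diabetic mice, which for Mpo was a smaller decrease. Among the genes named here, positive interactions were 5.12 for Ppbp, 4.27 for Ldhb, 3.94 for Mcpt2, 3.89 for Pf4, 2.79 for Mt1, 2.52 for Zfp825, 2.49 for Mt2, 2.48 for Gtpbp10, 2.06 for Rnf144b, 1.97 for Ptpla, 1.74 for Arg1, 1.59 for Spp1 and 0.39 for Mpo. Negative interactions were -4.05 for Nsun4, -3.34 for Hspa8, -3.04 for Fosb, -3.02 for Hspa1b, -2.95 for Lpl, -2.79 for Cacna1i, -2.78 for Klf2, -2.07 for Ubn2, -2.06 for Cdkl4, -1.33 for Tnf, -0.86 for Il1b, -0.83 for Lepr and -0.56 for Cxcr2, which was 0.047 on the annotated strand. Of these, Rnf144b, Ptpla, Ubn2, Cdkl4, Hspa8 and Lpl were called in opposite directions in the genotypes, though the decreases of Hspa8 and Ubn2 in diabetic mice were not called with median-ratio or quantile scaling. In diabetic mice Rnf144b rose by 0.97 and Ptpla by 1.04, and in nondiabetic mice they were at -1.10 and -0.93. Ubn2 and Cdkl4 were at -1.02 and -1.09 in diabetic mice and at 1.05 and 0.96 in nondiabetic mice.

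Loci without a gene name were outside every list. Of 3089 such loci tested, 762 (24.7%) were higher in diabetic wound than in diabetic marrow by at least 1 on the log2 scale, and 707 (22.9%) were lower by as much.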

How the results depend on the processing

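The call at an adjusted p under 0.05 holds for most genes, so counts depend on filter and size. With the stricter filter (fewer genes tested) 6425 genes were called between diabetic wound and marrow, 2228 higher and 4197 lower, with 1170 higher by at least 1, and 4932 between genotypes, 3330 higher and 1602 lower. Testing against a difference of 1 left 4897 genes, 2130 higher and 2767 lower, and 272 between genotypes, 127 higher and 145 lower. With a pseudocount of 5, 1167 genes were higher and 1976 lower by at least 1. With median-ratio scaling 3351 interactions were higher and 3910 lower. No other alternative moved these counts by over 1.5 times. Leaving out 1 pool gave 10803 to 11381 genes called, 4661 to 4981 higher and 6056 to 6400 lower, with 2724 to 2789 higher and 3373 to 3489 lower by at least 1. It gave 6644 to 7158 interactions, 4332 to 4842 higher and 2209 to 2448 lower. A lone pool is then assumed to vary like the other groups.

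Single genes reversed as follows, and the cause was not tested. Hoxa3 was at -0.33 with quantile scaling and between -0.019 and 0.32 without 1 pool, and the Adam8 locus at 0.059 with median-ratio scaling. Zfp825 was between -1.14 and 0.28 without 1 pool, at 0.28 without diabetic marrow pool 1 and at 0.07 without diabetic wound pool 1. Pkp1 was at 2.39 on the annotated strand and at 0.46 with loci summed. The interaction of Camp was -0.22 and -0.15 with quantile and median-ratio scaling, and between -0.049 and 0.26 without 1 pool. That of Ly6g was -0.050 and -0.17 with quantile and median-ratio scaling, and that of Cxcr2 was 0.047 on the annotated strand. Of 6328 alternative values of named genes between diabetic wound and marrow, 6264 kept direction and side of the threshold.

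Same-numbered pools did not deviate together (correlation -0.124 in diabetic and -0.215 in nondiabetic mice). With the replicate block 4902 genes were higher and 6330 lower, and 4731 and 2368 interactions. With the pool numbers crossed, an alternative chosen after seeing the data, 4909 genes were higher and 6295 lower. Pools of 2 per group, unknown depth, and genes under about 1 FPKM limit precision.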
